A study of Mus musculus with 6 samples.

Results

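The 55 genes described here are the 19 Wnt ligand genes, 10 Frizzled receptor genes, 6 co-receptor and kinase-like receptor genes, 4 R-spondin genes, 10 secreted inhibitor genes, 4 TCF/LEF transcription factor genes and the feedback targets Axin2 and Nkd1. They were chosen by gene symbol, and all 55 were present among the 22869 symbols of the count table. Their RNA was compared between sorted mechanoreceptors and captured midline cells of mouse embryos of stage E14.5.

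Wnt proteins are lipid-modified signals that act over short distances. On the receiving cell they bind a Frizzled receptor together with a co-receptor. With Lrp5 or Lrp6 the signal stabilises beta-catenin, which then acts on target genes with TCF/LEF factors, while Ror, Ryk and Ptk7 proteins serve branches that need no beta-catenin and steer cell polarity and axon growth. In the embryonic spinal cord the roof plate is known as a source of Wnt1 and Wnt3a, and gradients of Wnt proteins guide growing axons along the cord.

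The 3 mechanoreceptor libraries (replicates 2, 8 and 9) were made from cells sorted by fluorescence out of dissociated dorsal root ganglia, the sensory ganglia that flank the cord. The embryos carried Ret-CreERT2 and Rosa26-Tdtomato on a mixed strain background, and their mothers had been gavaged with 1.5 and 2 mg of 4-hydroxytamoxifen, so that Cre active in Ret-expressing cells switched on the red reporter. The labels name the sorted cells Ret+ RA mechanoreceptors and do not give the dose behind each library. The 3 midline libraries (replicates 2, 3 and 5) were cut by laser from frozen, hematoxylin-stained spinal cords of wild-type embryos of mixed strain, and the labels describe the tissue as dorsal column midline cells of roof plate descent. The cell type goes along with the tissue, the method of isolation, the genotype and tamoxifen, and these cannot be told apart. The labels do not say that replicates came from separate embryos, so a p-value here reflects only how much these libraries vary, part of which may be technical.

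Counts over the kept transcript rows totalled 8670720 to 9879246 in mechanoreceptor libraries and 3963049 to 5648620 in midline libraries. Markers fitted the labels in the main. The summed level of 11 sensory neuron markers was 17865.5, 20506 and 26953 CPM in mechanoreceptor libraries 2, 8 and 9, against 694, 1764 and 793 CPM in midline libraries 2, 3 and 5, where CPM is the count scaled to the size and composition of its library, and 9 of the 11 were higher in mechanoreceptors. Of 7 roof plate markers, 6 were tested and all 6 were higher in the midline, with a sum of 1.78 to 8.503 CPM in mechanoreceptors and 267 to 999 CPM in the midline, and Gdf7 was at 0 in all mechanoreceptor libraries. Lmx1a, Lmx1b, Msx1 and Msx2 were below 1.4 CPM, the cut of the filter on low counts, in every mechanoreceptor library. They could be tested only through the midline libraries, so their direction was fixed by the filter. Genes of radial glia (6 of 7) were higher in the captured tissue, and these bulk data do not tell whether the midline cells themselves made them. The tissue also held RNA of other cells. Genes of dorsal horn neurons (5 of 6 tested), endothelium and pericytes (9 of 9), blood (4 of 4), cartilage (3 of 3 tested) and keratinocytes (2 of 2 tested) were higher there, and 0 of 4 microglia markers were called. Several of these genes, among them Pax6, Pax2, Gad2, Slc32a1, Krt5 and Trp63, were also below that cut in every mechanoreceptor library. Their direction was fixed as well. The sum of 6 skeletal muscle markers was 3.22, 5.68 and 6.997 CPM in mechanoreceptor libraries 2, 8 and 9, against 12442, 150.2 and 1234 CPM in midline libraries 2, 3 and 5, and that of 8 meninges and connective tissue markers was 313, 225 and 218 CPM in mechanoreceptor libraries 2, 8 and 9, against 7244.5, 646 and 1228.5 CPM in midline libraries 2, 3 and 5. The sum of 4 keratinocyte markers was 0.127 to 1.42 CPM in mechanoreceptor libraries, against 453, 5.33 and 7.86 CPM in midline libraries 2, 3 and 5. Midline library 2 stood apart in these 3 lists, and values without it are given where they differ. Midline library 3 was the highest for dorsal horn neurons. The sum of their 8 markers was 7.76 to 12.9 CPM in mechanoreceptors, against 125, 959 and 320 CPM in midline libraries 2, 3 and 5.

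Most of the Wnt genes were higher in the midline. Of the 55, 45 passed a filter on low counts and were tested, and 31 of them were called different (edgeR's quasi-likelihood test, adjusted p under 0.05), where 37.8% of all 15314 genes tested were called. The call was for a higher level in mechanoreceptors in 2, Rspo2 and Sfrp4, where 18.8% of all genes were called in that direction, and for a higher level in the midline in 29, where 18.9% of all genes were. Without midline library 2 the counts were 4 and 25. The median log2 fold change (mechanoreceptor minus midline, so a value below 0 stands for a higher midline level) was -2.69 over the 45, beside -0.05 over all genes tested. In 3 of the 45 every mechanoreceptor library lay above every midline library, beside 27.3% of all genes, and in 31 the reverse held, beside 27.5% of all genes. Of the 45, 9 passed the filter through the midline libraries alone, which fixed their direction (Wnt1, Wnt3, Wnt3a, Wnt5b, Wnt7b, Ror1, Rspo1, Rspo3 and Dkk1). All 9 are among the 29, and their calls add nothing to the count in that direction. Each also lies below the median of -2.69 and is among the 31 with every midline library above, so these figures are partly set by the filter. These are bulk samples, in which more cells that make a transcript and more transcript per cell cannot be told apart.

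**Figure D1:**
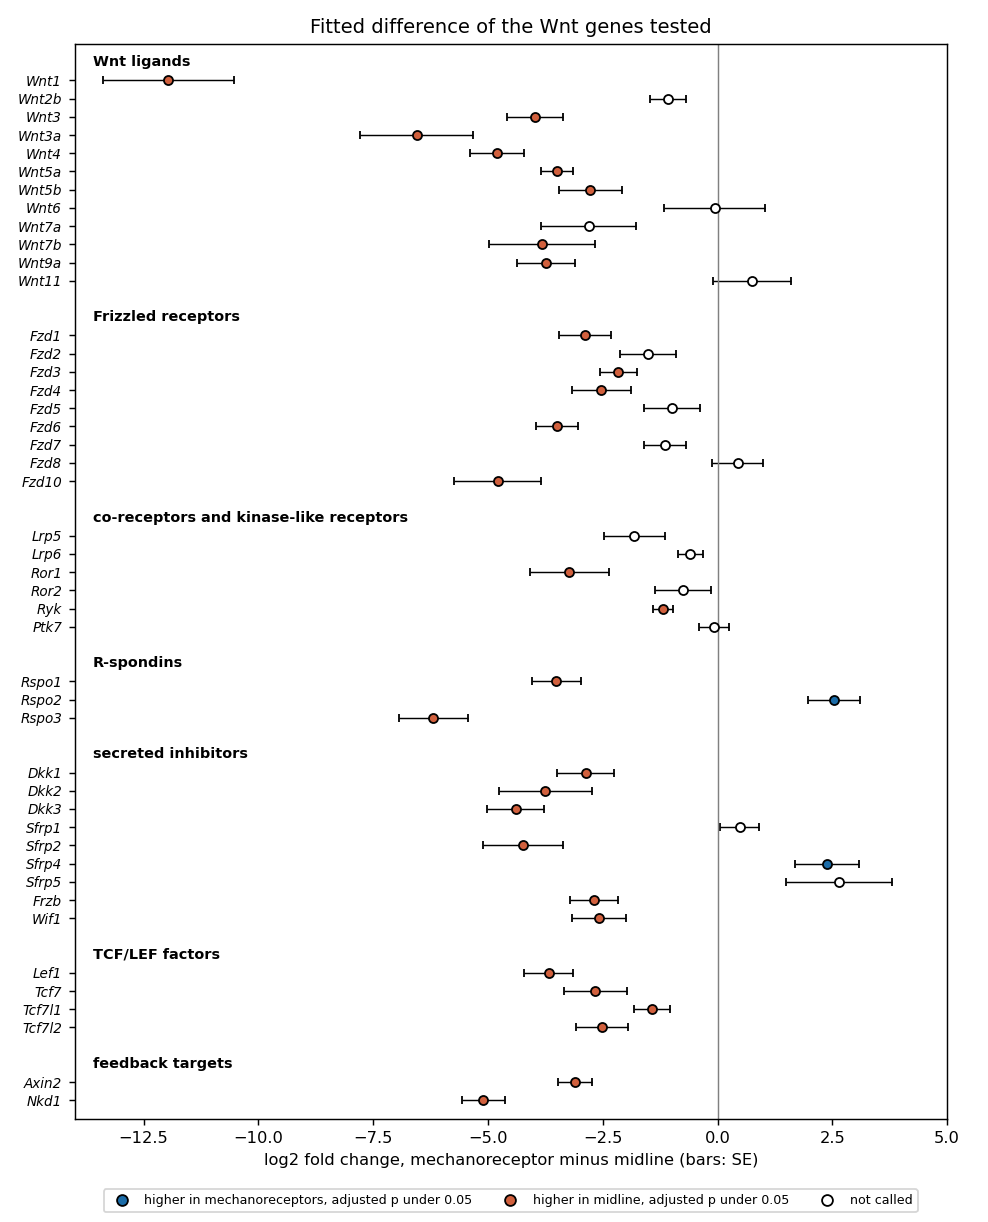
Fitted log2 fold change (mechanoreceptor minus midline, horizontal axis) of the 45 Wnt genes tested, grouped by role, with bars of 1 SE. Filled points passed an adjusted p of 0.05. The 2 blue points, Rspo2 and Sfrp4, lie right of 0 (higher in mechanoreceptors), the 29 orange points lie left of it (higher in the midline), and the point of Wnt1 rests on 0 counts in mechanoreceptors, so its place on the axis is set by the fit and is no measured fold.

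Every ligand gene called was higher in the midline. Of 12 ligand genes tested, 0 were higher in mechanoreceptors, beside 18.8% of all genes, 8 were higher in the midline, beside 18.9%, and 4 were not called, with a median log2 fold change of -3.62. Of the 8, 5 (Wnt1, Wnt3, Wnt3a, Wnt5b and Wnt7b) passed the filter through the midline libraries alone. Their direction was fixed by the filter, and the median of -3.62 includes them. Wnt1, the roof plate ligand that keeps dorsal progenitors dividing, had 0, 0 and 0 counts in mechanoreceptors, against 148, 191 and 934 counts in the midline, or 23.6, 42.4 and 147 CPM in midline libraries 2, 3 and 5. It was not detected in any mechanoreceptor library at this depth, where 3 counts in a library were worth 0.345 to 0.382 CPM, and the midline level was at least 592-fold higher when mechanoreceptors are set at 3 counts over the group (adjusted p = 0.00225). Midline library 5 carried most of it, and without that library the bound was 276-fold. Leaving out 1 mechanoreceptor library, which lowers the depth behind the bound, gave 386-fold to 406-fold. Wnt3a, the roof plate partner of Wnt1, had 1, 0 and 0 counts in mechanoreceptors, against 13, 11 and 73 counts in the midline. The ratio of summed counts, scaled for depth, was 142 (95% interval 24.8 to 5656, counting error only), and Wnt3a was called higher in the midline (adjusted p = 0.00544). Without midline library 5 that ratio was 55.8, and without mechanoreceptor library 2, which held the only count, the bound was 28.999-fold.

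Wnt3, Wnt4, Wnt5a and Wnt9a were detected in every library and were clearly higher in the midline. Wnt9a had 3.56, 2.13 and 6.23 CPM in the mechanoreceptor libraries and 34.03, 25.6 and 100.02 CPM in the midline libraries. Library 5 stood far above the other midline libraries, none of which reached down to the mechanoreceptors (log2 fold change -3.74, SE 0.63, adjusted p = 0.00351, and -2.86 without library 5). Wnt3 had 0.689, 0.947 and 1.40 CPM in mechanoreceptors, against 6.23, 20.4 and 22.02 CPM in the midline. Midline library 2 was the low one here, still above every mechanoreceptor library (log2 fold change -3.98, SE 0.61, adjusted p = 0.00255). Wnt3 passed the filter through the midline libraries alone, so its direction was fixed by the filter. Wnt4, a ligand that steers commissural axons along the cord, had 1.72, 0.355 and 0.636 CPM in mechanoreceptor libraries 2, 8 and 9, against 24.8, 18.2 and 34.6 CPM in midline libraries 2, 3 and 5. The midline libraries lay close together and the groups did not overlap (log2 fold change -4.80, SE 0.59, adjusted p = 0.00119). Without mechanoreceptor library 2, the highest of its group, the log2 fold change was -5.64. Wnt5a, which signals through Ror and Ryk receptors without beta-catenin, had 5.97, 2.84 and 3.43 CPM in the mechanoreceptor libraries and 48.4, 38.9 and 50.95 CPM in the midline libraries. Its midline values were the most even of all ligands called, and the groups lay far apart (log2 fold change -3.49, SE 0.35, adjusted p = 0.000566).

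Wnt5b and Wnt7b were low in both groups, with at most 0.947 CPM in mechanoreceptors and at most 4.31 CPM in the midline. Both were called higher in the midline (log2 fold change -2.77, adjusted p = 0.0151 for Wnt5b, and -3.82, adjusted p = 0.0321 for Wnt7b), and both passed the filter through the midline libraries alone. The call of Wnt5b was lost without mechanoreceptor library 2 or 9 or midline library 2, with adjusted p up to 0.0596, and its log2 fold change was -3.50 without mechanoreceptor library 8. The call of Wnt7b was lost without mechanoreceptor library 8 or 9 or midline library 2 or 3, with adjusted p up to 0.0905, and its log2 fold change was -7.33 without mechanoreceptor library 2, which held all its mechanoreceptor counts. On the deposited log2 values neither Wnt5b (adjusted p = 0.0828) nor Wnt7b (adjusted p = 0.0724) was called.

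The 4 ligand genes tested and not called were Wnt2b, Wnt6, Wnt7a and Wnt11. Wnt2b had 6.43, 6.86 and 5.60 CPM in mechanoreceptors, against 17.9, 8.22 and 13.8 CPM in the midline. Its groups were apart and narrowly so (log2 fold change -1.08, SE 0.39, adjusted p = 0.0584), while the call was made by DESeq2 (adjusted p = 0.0209), under upper-quartile scaling (0.0309), under a stricter count filter (0.047) and without midline library 3 (0.0237). Wnt7a had 0.919, 0 and 2.04 CPM in mechanoreceptor libraries 2, 8 and 9, against 3.68, 12.4 and 4.87 CPM in midline libraries 2, 3 and 5. Here too the groups were apart, with a wide spread in each (log2 fold change -2.81, SE 1.03, adjusted p = 0.0623), and DESeq2 (adjusted p = 0.0138) and limma-voom (0.0406) called it. Wnt7a moved to -3.84 without mechanoreceptor library 9, to -2.21 without mechanoreceptor library 8 and to -2.09 without midline library 3. Wnt6 (log2 fold change -0.06, SE 1.10) and Wnt11 (0.75, SE 0.86) overlapped between groups at no more than 4.15 CPM, and without midline library 2 they stood at 1.53 and 2.38, neither called.

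A further 7 ligand genes were too low to test. Wnt2, Wnt10a and Wnt10b had 0 counts in all mechanoreceptor libraries, against 1 to 11 counts per midline library. Wnt9b had 1, 0 and 0 counts in mechanoreceptors, against 5, 3 and 6 counts in the midline, and Wnt8b had 0, 1 and 0 counts in mechanoreceptors, against 1, 10 and 16 counts in the midline. Wnt8a and Wnt16 had at most 7 counts in any library, with overlapping groups.

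Counted per kilobase of transcript, which allows levels of different genes to be compared, the 19 ligand genes summed to 8.43, 5.81 and 8.21 CPM per kb in mechanoreceptor libraries 2, 8 and 9, against 52.4, 54.9 and 128 CPM per kb in midline libraries 2, 3 and 5. The leading ligand gene varied between the libraries of a group. Of the mean level Wnt2b gave 25.4% in mechanoreceptors, but it led in library 8 alone, while Wnt11 led in library 2 (2.31 CPM per kb, beside 1.94 for Wnt2b) and Wnt9a in library 9 (1.88 CPM per kb, beside 1.69 for Wnt2b). Wnt1 gave 38.1% of the mean level in the midline and led in libraries 3 and 5, and in library 2 Wnt9a stood at 10.3 CPM per kb, beside 9.94 for Wnt1. After Wnt1 at 29.9 CPM per kb, the midline mean was next highest in Wnt9a at 16.0 CPM per kb.

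**Figure D2:**
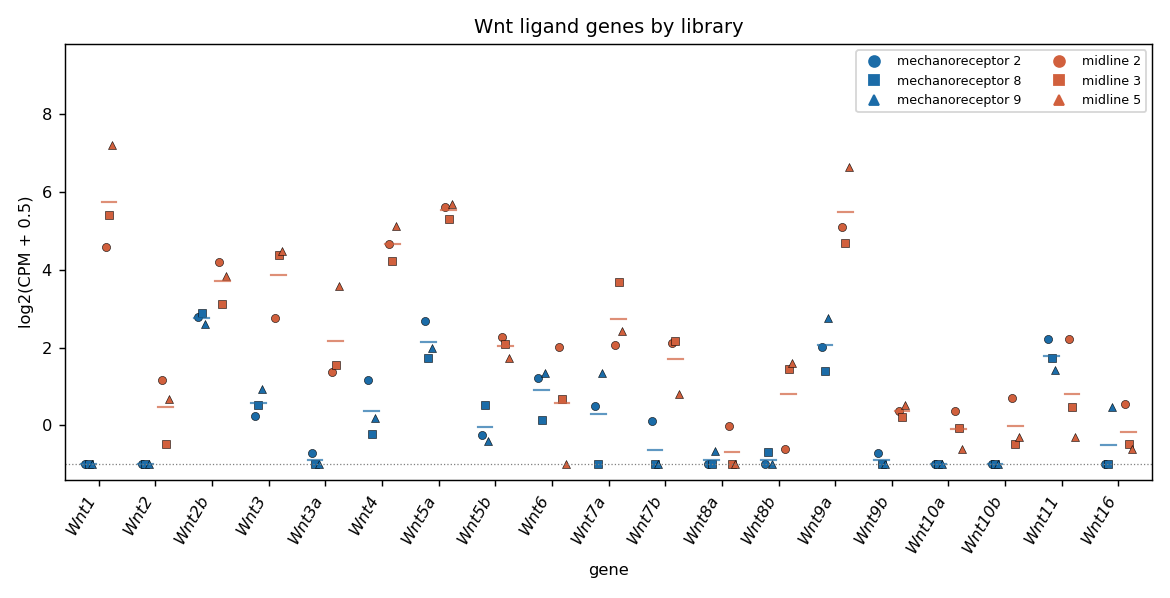
Level of the 19 Wnt ligand genes in each library, as log2(CPM + 0.5), with a bar at the mean of each group's 3 values. Blue symbols are mechanoreceptor libraries and orange symbols midline libraries, and the dotted line marks 0 counts. Wnt1 shows all 3 mechanoreceptor symbols on that line and midline values of 23.6 to 147 CPM.

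Some of these ligand genes are neighbours on the chromosome, per the RefSeq gene order of assembly GRCm38.p6. Wnt3a and Wnt9a on chromosome 11 were both higher in the midline. Wnt10b lies beside Wnt1 on chromosome 15 and Wnt10a beside Wnt6 on chromosome 1, and in each of these pairs the first was too low to test. The models of Wnt9b and Wnt3 on chromosome 11 overlap, and since the strand of the libraries is not stated, reads in their shared stretch cannot be told apart. In all, 21 of the 55 genes have an overlapping gene in that annotation, protein-coding for Wnt2b, Wnt3, Wnt5b, Wnt9b, Fzd4 and Tcf7.

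Frizzled receptor genes were present in both groups. Of the 9 tested, 5 were higher in the midline, beside 18.9% of all genes, and 4 were not called (median log2 fold change -2.16). Fzd3, the Frizzled receptor that axons need for guidance together with Celsr3, had 139.9, 136 and 97.2 CPM in the mechanoreceptor libraries and 254, 598 and 811 CPM in the midline libraries. It was the most abundant Frizzled gene of both groups per length, with 9.77 CPM per kb in mechanoreceptors and 43.5 CPM per kb in the midline, and gave 43.6% and 43.8% of the summed Frizzled level of each. The groups did not overlap (log2 fold change -2.16, SE 0.41, adjusted p = 0.00569). Fzd10, a Frizzled gene known for its expression in dorsal spinal cord, had 0.230, 0.828 and 2.54 CPM in mechanoreceptors, against 12.8, 17.6 and 68.9 CPM in the midline. Midline library 5 was again the highest and mechanoreceptor library 9 the nearest to the midline (log2 fold change -4.79, SE 0.94, adjusted p = 0.0064, with -3.61 without midline library 5 and -5.91 without mechanoreceptor library 9).

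Fzd6 had 4.02, 1.66 and 1.78 CPM in mechanoreceptor libraries 2, 8 and 9, against 34.5, 20.001 and 30.8 CPM in midline libraries 2, 3 and 5. Its midline libraries were alike and well above the mechanoreceptors (log2 fold change -3.50, SE 0.46, adjusted p = 0.00143). Fzd1 had 14.4, 8.17 and 8.40 CPM in the mechanoreceptor libraries and 69.3, 25.1 and 134 CPM in the midline libraries. Library 5 was the highest of the midline and library 3 the lowest, with no overlap between groups (log2 fold change -2.89, SE 0.57, adjusted p = 0.00686, and -2.15 without midline library 5). Fzd4, the receptor through which endothelium answers norrin, had 5.63, 2.49 and 2.93 CPM in mechanoreceptors, against 42.2, 11.1 and 10.9 CPM in the midline. Midline library 2 was far above the others (log2 fold change -2.53, SE 0.64, adjusted p = 0.0173), while the log2 fold change without it was -1.54. The call of Fzd4 was lost without mechanoreceptor library 8 (adjusted p = 0.0685) or 9 (0.0684). The 9 endothelium and pericyte markers were all higher in the midline, with sums of 74.7 to 161 CPM in mechanoreceptors. In midline libraries 2, 3 and 5 these sums were 665, 631 and 663 CPM, without the high value that Fzd4 had in library 2. The sums of meninges and muscle markers were highest in library 2. The part of any of these markers in the level of Fzd4 was not tested.

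Fzd7, the second of the Frizzled genes of mechanoreceptors per length at 3.70 CPM per kb, had 15.9, 19.9 and 14.6 CPM in mechanoreceptor libraries 2, 8 and 9, against 56.4, 14.0004 and 41.4 CPM in midline libraries 2, 3 and 5. Midline library 3 fell below all mechanoreceptor libraries while the other two lay above (log2 fold change -1.15, SE 0.46, adjusted p = 0.0812), and Fzd7 was called without that library (adjusted p = 0.00347), by DESeq2 (0.0375) and under upper-quartile scaling (0.0472). Fzd2 (log2 fold change -1.51, adjusted p = 0.0854), Fzd5 (log2 fold change -0.99, adjusted p = 0.233) and Fzd8 (log2 fold change 0.44, adjusted p = 0.564) also overlapped between groups. Without midline library 2 their log2 fold changes were -0.74, -0.16 and 1.18. Fzd2 was called without midline library 3 (adjusted p = 0.0107) and by DESeq2 (0.034). Fzd9 was too low to test, with 10, 7 and 11 counts in mechanoreceptors, against 50, 2 and 12 counts in the midline.

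Among the co-receptors and kinase-like receptors only Ryk and Ror1 were called, both higher in the midline, beside 18.9% of all genes, and 4 of the 6 were not called (median log2 fold change -0.97). Ryk, a receptor by which Wnt proteins repel axons, had 20.1, 21.5 and 25.7 CPM in the mechanoreceptor libraries and 53.5, 49.8 and 50.6 CPM in the midline libraries. Both groups were tight and did not overlap, and the difference was of modest size (log2 fold change -1.19, SE 0.21, adjusted p = 0.00386). Lrp6, the co-receptor of the beta-catenin branch, was abundant in both groups, with 119, 115 and 74.4 CPM in mechanoreceptors, against 193, 113 and 156 CPM in the midline. Midline library 3 fell among the mechanoreceptors (log2 fold change -0.59, SE 0.27, adjusted p = 0.117), and Lrp6 was called without that library (adjusted p = 0.0373), under upper-quartile scaling (0.0447) and on the deposited log2 values (0.0306). Ptk7, a kinase-dead receptor of planar polarity, had 32.9, 26.9 and 23.9 CPM in mechanoreceptor libraries 2, 8 and 9, against 38.8, 18.0005 and 31.3 CPM in midline libraries 2, 3 and 5. Its groups overlapped throughout (log2 fold change -0.08, SE 0.32, adjusted p = 0.863).

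Ror1, a receptor for Wnt5a, was called at 0.237 to 0.919 CPM in mechanoreceptors and 1.33 to 7.19 CPM in the midline (log2 fold change -3.23, SE 0.86, adjusted p = 0.0203). That call was lost without mechanoreceptor library 8 or 9, without midline library 2 or 5 and on the deposited log2 values, with adjusted p up to 0.15, and its log2 fold change was -4.11 without mechanoreceptor library 2. Ror1 passed the filter through the midline libraries alone, so its direction was fixed by the filter. Its relative Ror2 overlapped between groups (log2 fold change -0.75, adjusted p = 0.363) and was called only without midline library 3 (adjusted p = 0.0432). Ror2 stood at -0.01 without midline library 5. Lrp5 was higher in the mean of the midline, and midline library 3 fell just below the highest mechanoreceptor library (log2 fold change -1.81, SE 0.67, adjusted p = 0.0661). Lrp5 was called by DESeq2 (adjusted p = 0.0183), under upper-quartile scaling (0.0462), without midline library 3 (0.0379) and without mechanoreceptor library 2 (0.0345, log2 fold change -2.65), and stood at -1.03 without midline library 2. The count of these 6 genes called higher in the midline ranged from 1 to 5 when libraries were left out in turn.

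**Figure D3:**
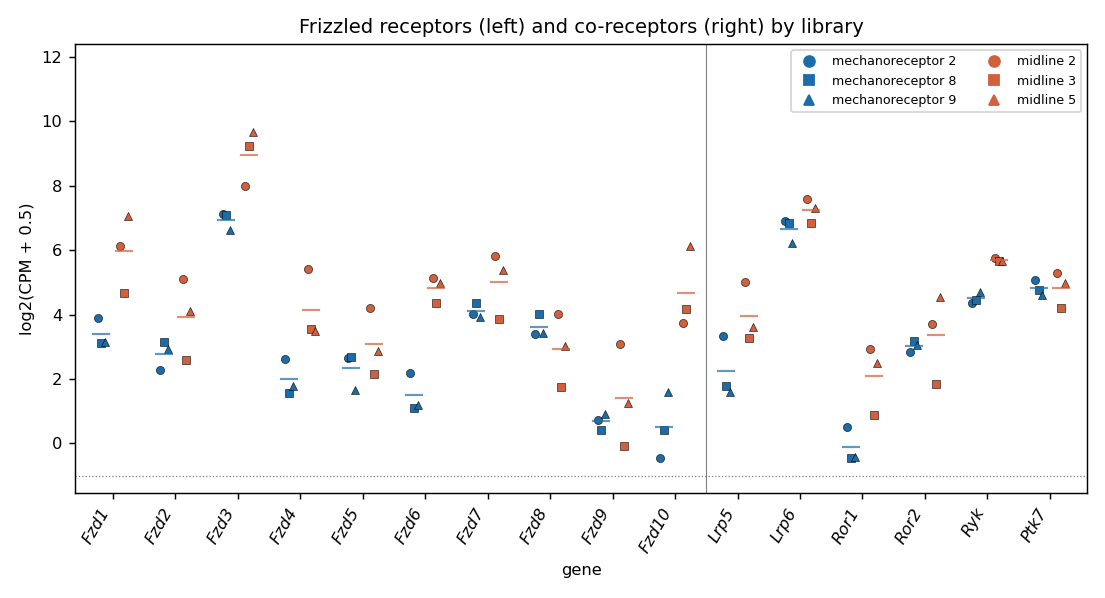
Level of the 10 Frizzled and 6 co-receptor genes in each library, as log2(CPM + 0.5), with a bar at the mean of each group's 3 values. Blue symbols are mechanoreceptor libraries and orange symbols midline libraries. Fzd3, Fzd6 and Fzd10 show all midline symbols above all mechanoreceptor symbols, and Lrp6 and Ptk7 show groups that overlap.

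R-spondins are secreted proteins that bind Lgr receptors and keep Frizzled receptors on the surface. Rspo2 differed from Rspo1 and Rspo3 in direction. Rspo2 had 16.2, 13.02 and 16.9 CPM in the mechanoreceptor libraries and 4.95, 1.78 and 1.10 CPM in the midline libraries. Every mechanoreceptor library lay above every midline library, and midline library 2 was the highest of the midline (log2 fold change 2.54, SE 0.56, adjusted p = 0.0101, and 3.46 without that library). Rspo3 had 0.804, 0.237 and 1.27 CPM in mechanoreceptors, against 33.6, 28.9 and 109 CPM in the midline. The midline was far above the mechanoreceptors, with library 5 highest (log2 fold change -6.19, SE 0.75, adjusted p = 0.00111, and -5.28 without library 5). Rspo1 had 0.460, 1.07 and 1.27 CPM in mechanoreceptor libraries 2, 8 and 9, against 9.59, 8.67 and 13.996 CPM in midline libraries 2, 3 and 5. It too showed no overlap (log2 fold change -3.51, SE 0.53, adjusted p = 0.00241). Rspo1 and Rspo3 passed the filter through the midline libraries alone, so their direction was fixed by the filter, while Rspo2 passed through both groups. Rspo4 was too low to test with all libraries in, with 44, 33 and 8 counts in mechanoreceptors, against 6, 0 and 3 counts in the midline, and every mechanoreceptor library lay above every midline library. Without mechanoreceptor library 9, the R-spondins called higher in mechanoreceptors numbered 2 instead of 1, and the second was Rspo4. Per length, Rspo2 gave 68.1% of the mean R-spondin level of mechanoreceptors, and Rspo3 gave 73.0% of that of the midline.

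Secreted inhibitors were found on both sides. Of 9 tested, 1 was higher in mechanoreceptors, beside 18.8% of all genes, 6 were higher in the midline, beside 18.9%, and 2 were not called (median log2 fold change -2.69). Dkk3, a divergent member of the Dickkopf family, had 9.42, 4.97 and 12.5 CPM in the mechanoreceptor libraries and 107, 93.8 and 365 CPM in the midline libraries. Its mean per length in the midline, 56.1 CPM per kb, was the highest of all 55 genes through library 5 (109 CPM per kb). Sfrp2 led in midline library 2 (56.9 CPM per kb, beside 31.7 for Dkk3) and Fzd3 in library 3 (46.9 CPM per kb, beside 27.9 for Dkk3), and without library 5 the mean of Dkk3 was 29.8 CPM per kb, below Fzd3 at 33.4 and Sfrp2 at 31.4. Dkk3 was higher in the midline (log2 fold change -4.40, SE 0.63, adjusted p = 0.00191, and -3.44 without that library). Frzb, a secreted Frizzled-related protein, had 4.94, 5.56 and 3.69 CPM in mechanoreceptors, against 14.54, 55.6 and 22.5 CPM in the midline. Midline library 3 was the highest of this gene (log2 fold change -2.69, SE 0.53, adjusted p = 0.00637, and -1.96 without it). Wif1, which binds Wnt proteins directly, had 1.49, 3.20 and 0.891 CPM in mechanoreceptor libraries 2, 8 and 9, against 16.5, 7.33 and 9.75 CPM in midline libraries 2, 3 and 5. The groups were apart (log2 fold change -2.58, SE 0.59, adjusted p = 0.0114), and without mechanoreceptor library 2 the call was lost (adjusted p = 0.0515), while without mechanoreceptor library 8 the log2 fold change was -3.19.

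Sfrp2 and Dkk2 were highest in the midline library that held the most meningeal and muscle RNA. Sfrp2, a Frizzled-related inhibitor, had 4.94, 1.89 and 1.53 CPM in the mechanoreceptor libraries and 114, 12.0004 and 31.9 CPM in the midline libraries. Midline library 2 was more than the sum of the other two, and the groups did not overlap (log2 fold change -4.23, SE 0.87, adjusted p = 0.00786). The log2 fold change of Sfrp2 was -2.94 without midline library 2 and -4.91 without mechanoreceptor library 2. Dkk2, a ligand of Lrp5 and Lrp6, had 2.87, 0.355 and 1.91 CPM in mechanoreceptors, against 53.2, 4.44 and 11.8 CPM in the midline. Midline library 3 was only just above the highest mechanoreceptor library (log2 fold change -3.75, SE 1.01, adjusted p = 0.0219). The call of Dkk2 was lost in 6 of the alternatives, with adjusted p up to 0.0741, and the log2 fold change without midline library 2 was -2.21 (adjusted p = 0.0696). Of the 8 meninges and connective tissue markers 5 were higher in the midline, none was at 0 in either group, and their part in these results was not tested. Dkk1, the classical inhibitor of Lrp6, was low, at 0.345 to 0.473 CPM in mechanoreceptors and 2.04 to 3.56 CPM in the midline (log2 fold change -2.87, SE 0.62, adjusted p = 0.00939), and was not called on the deposited log2 values (adjusted p = 0.0974). It passed the filter through the midline libraries alone, so its direction was fixed by the filter.

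Sfrp4 was the inhibitor higher in mechanoreceptors, with 22.9, 31.8 and 22.5 CPM in mechanoreceptor libraries 2, 8 and 9, against 10.9, 1.11 and 2.52 CPM in midline libraries 2, 3 and 5. Midline library 2 was the nearest to the mechanoreceptors, and the groups did not overlap (log2 fold change 2.39, SE 0.70, adjusted p = 0.0293). The log2 fold change of Sfrp4 was 3.79 without midline library 2, and the call was lost without mechanoreceptor library 2 (adjusted p = 0.0694), 8 (0.0871) or 9 (0.0666) or midline library 5 (0.0755). Sfrp5 followed the same order, with 5.52, 21.4 and 6.49 CPM in the mechanoreceptor libraries and 4.79, 0 and 0.315 CPM in the midline libraries. Its groups were apart, with mechanoreceptor library 8 and midline library 2 high in their groups, and it was not called (log2 fold change 2.65, SE 1.15, adjusted p = 0.104). Sfrp5 stood at 5.84 without midline library 2 (adjusted p = 0.00512) and at 1.79 without mechanoreceptor library 8, and was also called by DESeq2 (0.0461) and on the deposited log2 values (0.0204). Sfrp1 was the most abundant of the 55 genes per length in mechanoreceptors, at 26.9 CPM per kb, beside 19.2 CPM per kb in the midline. It had 112, 162 and 78.2 CPM in mechanoreceptors, against 137, 71.3 and 44.03 CPM in the midline. The groups overlapped (log2 fold change 0.48, SE 0.43, adjusted p = 0.401), and Sfrp1 was called higher in mechanoreceptors only without midline library 2 (adjusted p = 0.0441). Dkk4 was not tested, with 4 counts in midline library 2 and 0 in every other library. Schwann cell and satellite glia markers, which dissociated ganglia can bring along, summed to 49.0 to 99.9999 CPM in mechanoreceptors and 20.2 to 59.1 CPM in the midline, with 2 of 5 higher in mechanoreceptors and none at 0, and their part in the levels of Rspo2, Sfrp4 and Sfrp5 was not tested.

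**Figure D4:**
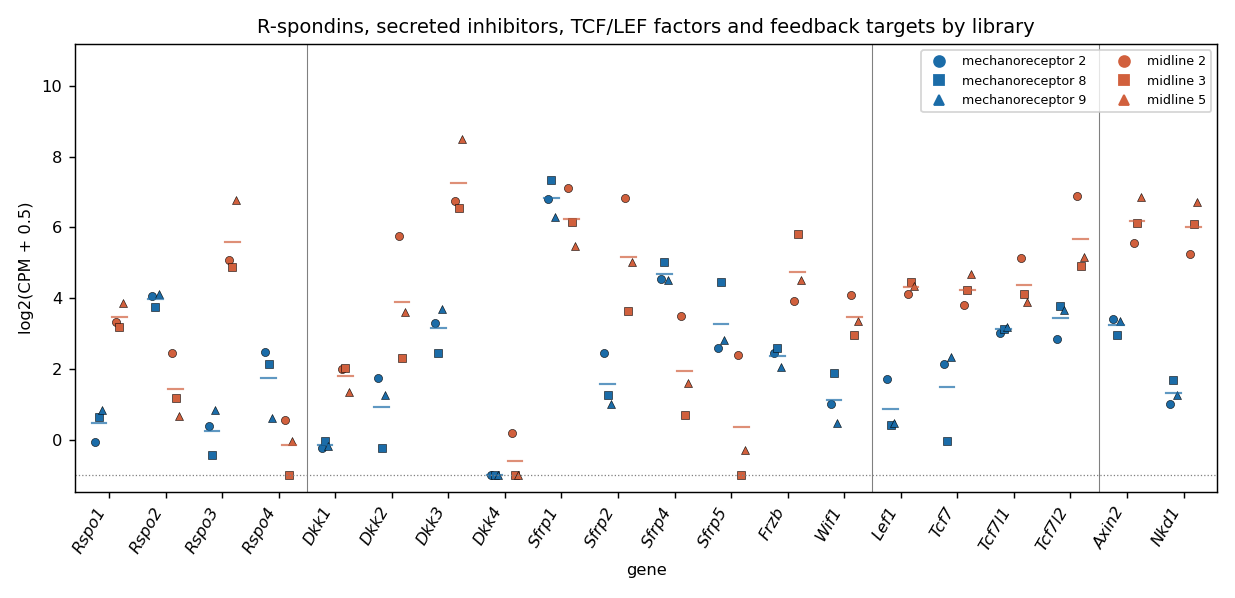
Level of the R-spondin, secreted inhibitor, TCF/LEF and feedback target genes in each library, as log2(CPM + 0.5), with a bar at the mean of each group's 3 values. Blue symbols are mechanoreceptor libraries and orange symbols midline libraries. Rspo2, Rspo4, Sfrp4 and Sfrp5 show mechanoreceptor symbols above all midline symbols, and Axin2 and Nkd1 show the reverse.

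Target genes and TCF/LEF factors were all higher in the midline, 2 of 2 and 4 of 4, beside 18.9% of all genes. Axin2, a scaffold of the beta-catenin destruction complex that Wnt signalling induces in many tissues, had 10.2, 7.22 and 9.67 CPM in mechanoreceptor libraries 2, 8 and 9, against 46.98, 68.9 and 117 CPM in midline libraries 2, 3 and 5. All midline libraries were several times above the mechanoreceptors, library 5 the most (log2 fold change -3.10, SE 0.37, adjusted p = 0.00106). Nkd1, an inducible antagonist that binds Dishevelled, had 1.49, 2.72 and 1.91 CPM in the mechanoreceptor libraries and 37.4, 68.7 and 105 CPM in the midline libraries. It had the lowest adjusted p of the 55 genes, and its midline libraries stood in the order of those of Axin2 (log2 fold change -5.10, SE 0.47, adjusted p = 0.000432). Lef1, a TCF/LEF factor that is itself a frequent Wnt target, had 2.76, 0.828 and 0.891 CPM in mechanoreceptors, against 16.8, 21.6 and 19.97 CPM in the midline. Midline values were even and mechanoreceptor library 2 was the highest of its group (log2 fold change -3.68, SE 0.53, adjusted p = 0.00201, and -4.45 without mechanoreceptor library 2).

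The other TCF/LEF genes had smaller fitted differences. Tcf7 had 3.91, 0.473 and 4.58 CPM in mechanoreceptor libraries 2, 8 and 9, against 13.6, 18.2 and 25.004 CPM in midline libraries 2, 3 and 5. Mechanoreceptor library 8 was the lowest value, and no library of either group crossed over (log2 fold change -2.66, SE 0.69, adjusted p = 0.0188). Tcf7 was not called without mechanoreceptor library 2 (adjusted p = 0.0543) or midline library 5 (0.059). Tcf7l2 had 6.66, 13.3 and 12.1 CPM in the mechanoreceptor libraries and 119, 29.8 and 35.4 CPM in the midline libraries. Midline library 2 was far above the other two, which still lay above the mechanoreceptors (log2 fold change -2.52, SE 0.57, adjusted p = 0.0108, and -1.59 without midline library 2). Tcf7l1, which mostly represses, had 7.58, 8.28 and 8.65 CPM in mechanoreceptors, against 34.7, 16.9 and 14.47 CPM in the midline. The mechanoreceptor values were nearly equal and the midline lay above them (log2 fold change -1.43, SE 0.40, adjusted p = 0.0237). Tcf7l1 was not called in 5 of the alternatives. These were the fits without midline library 2 (adjusted p = 0.0733) or mechanoreceptor library 2 (0.083), 8 (0.075) or 9 (0.0668), and limma on the deposited log2 values (0.0698). Per length, Tcf7l1 led the TCF/LEF genes of mechanoreceptors with 48.6% of their mean level and in each of the 3 libraries. In the midline Tcf7l2 gave 40.4% of the mean level through library 2 (32.7 CPM per kb), while Tcf7l1 led in library 3 (8.95 CPM per kb, beside 8.21 for Tcf7l2) and Tcf7 in library 5 (10.1 CPM per kb, beside 9.75 for Tcf7l2).

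Axin2, Nkd1 and Dkk1 are feedback genes of the pathway and were each called higher in the midline, Dkk1 with its direction fixed by the filter. The start of each gene was searched for the core letters that TCF/LEF factors are known to bind. The windows are those of RefSeq on GRCm38.p6, from 250 bases before to 50 bases after the annotated start, written 5′ to 3′ on the gene's strand. The letters searched were CTTTGAT and CTTTGAA on both strands, and a window counts once however many matches it holds, overlapping ones included. The window of Axin2 lies at chr11:108920099-108920398 (plus strand), that of Nkd1 at chr8:88527383-88527682 (plus strand) and that of Dkk1 at chr19:30549447-30549746 (minus strand). Capitals mark a match.
Axin2: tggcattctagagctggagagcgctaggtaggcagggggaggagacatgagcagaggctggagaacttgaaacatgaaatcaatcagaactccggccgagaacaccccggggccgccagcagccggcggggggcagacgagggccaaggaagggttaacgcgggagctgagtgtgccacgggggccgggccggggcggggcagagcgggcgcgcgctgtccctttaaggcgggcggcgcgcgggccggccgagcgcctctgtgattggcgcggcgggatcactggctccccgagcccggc
Nkd1: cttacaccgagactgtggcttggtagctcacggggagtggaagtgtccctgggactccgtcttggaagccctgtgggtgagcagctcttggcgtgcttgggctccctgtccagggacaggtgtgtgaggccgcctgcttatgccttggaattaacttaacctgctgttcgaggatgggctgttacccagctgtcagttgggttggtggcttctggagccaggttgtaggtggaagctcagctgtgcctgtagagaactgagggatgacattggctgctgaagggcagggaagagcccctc
Dkk1: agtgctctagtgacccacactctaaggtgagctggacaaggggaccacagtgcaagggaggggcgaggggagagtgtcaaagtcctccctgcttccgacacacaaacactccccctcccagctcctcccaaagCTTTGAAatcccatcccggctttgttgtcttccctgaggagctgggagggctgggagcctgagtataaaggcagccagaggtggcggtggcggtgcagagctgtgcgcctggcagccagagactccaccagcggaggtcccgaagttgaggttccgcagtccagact

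The Dkk1 window holds 1 match, CTTTGAA, which begins 117 bases before the start, and the windows of Axin2 and Nkd1 hold 0. The windows of Lef1, also a frequent Wnt target and higher in the midline, hold 0 as well and are not printed. Axin2 has 31 CpG pairs in its window, against 6 in that of Nkd1 and 9 in that of Dkk1. Over the 39 genes of the 55 with a window, 3 of 47 windows held a match, or 6.38% (Wnt5b, Wnt11 and Dkk1), beside 8.65% of all 32851 windows. The median CpG count was 25 in the windows of the Wnt genes and 7 over all windows. These are matches of letters in a short window and say nothing of binding, and these data hold no measurement at the promoters.

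Other genes of the pathway were called in both directions. Of 69 such genes found in the table, 62 were tested, and 13 were higher in mechanoreceptors, beside 18.8% of all genes, 21 higher in the midline, beside 18.9% of all genes, and 28 not called, with a median log2 fold change of -0.34. Leaving out mechanoreceptor library 2 cut the 34 calls to 17, and leaving out mechanoreceptor library 8 cut them to 20. Of the 34, 13 kept their call in every alternative.

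The genes by which Wnt ligands leave the cell and reach it followed the ligands in part. Wls, the carrier that brings Wnt proteins to the surface, had 16.2, 3.31 and 5.98 CPM in mechanoreceptor libraries 2, 8 and 9, against 99.5, 116 and 285 CPM in midline libraries 2, 3 and 5. The groups were far apart (log2 fold change -4.29, SE 0.67, adjusted p = 0.00264, with -5.14 without mechanoreceptor library 2 and -3.62 without midline library 5). Porcn, which attaches the lipid to Wnt proteins, went the other way, with 64.1, 79.3 and 49.7 CPM in the mechanoreceptor libraries and 15.3, 25.6 and 36.5 CPM in the midline libraries. Mechanoreceptors lay above the midline without overlap (log2 fold change 1.32, SE 0.34, adjusted p = 0.0179), and Porcn lost its call without mechanoreceptor library 2 (adjusted p = 0.0537) or 8 (0.0693). Notum, which removes that lipid, was called higher in the midline at up to 4.67 CPM (log2 fold change -4.06, adjusted p = 0.0235) and lost the call in 4 alternatives, with adjusted p up to 0.0718. Notum moved to -7.28 without mechanoreceptor library 2, which held all its mechanoreceptor counts. With 4, 0 and 0 counts in mechanoreceptors, Notum passed the filter through the midline libraries alone. Its direction was fixed by the filter, and its call adds nothing to the 21 other pathway genes higher in the midline.

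Among R-spondin receptors and the ubiquitin ligases they restrain, Znrf3 (log2 fold change -1.03, adjusted p = 0.0391) and Lgr6 (log2 fold change -1.71, adjusted p = 0.0196) were higher in the midline, and Lgr4 (log2 fold change -0.23, adjusted p = 0.583) and Lgr5 (log2 fold change -1.21, adjusted p = 0.0819) were not called. The call of Znrf3 was lost in 7 alternatives, with adjusted p up to 0.151, and that of Lgr6 in 5, with adjusted p up to 0.191. Of 7 other extracellular modulators and co-receptors tested, 6 were higher in the midline, beside 18.9% of all genes, and 1 was not called. Lrp4, a receptor that binds Dickkopf and sclerostin proteins, had 7.24, 4.02 and 5.22 CPM in mechanoreceptors, against 309, 213 and 1365 CPM in the midline. Library 5 was again the highest of the midline (log2 fold change -6.83, SE 0.83, adjusted p = 0.00111, and -5.52 without it). Sostdc1 (log2 fold change -3.36, adjusted p = 0.0105) and Tpbg (log2 fold change -3.30, adjusted p = 0.00466), both extracellular inhibitors, were higher in the midline with library 5 highest, and stood at -1.97 and -2.23 without that library. Sostdc1 was not called without mechanoreceptor library 2 (adjusted p = 0.0501). Apcdd1, a membrane inhibitor that Wnt signalling induces, had 6.78, 5.44 and 4.45 CPM in mechanoreceptor libraries 2, 8 and 9, against 30.04, 49.1 and 55.2 CPM in midline libraries 2, 3 and 5. Its groups did not overlap (adjusted p = 0.000832). Reck was not called (log2 fold change -0.20, adjusted p = 0.687).

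In the intracellular beta-catenin arm the calls depended on the scaling and on single libraries. Of its 27 genes tested, 9 were higher in mechanoreceptors, beside 18.8% of all genes, 3 higher in the midline, beside 18.9%, and 15 not called, with a median log2 fold change of 0.50. Upper-quartile scaling gave 3 calls for a higher level in mechanoreceptors against 4 for the midline, and the deposited log2 values gave 4 against 3. With mechanoreceptor library 2 or 8 left out there were 3 against 2, and with library 9 left out 5 against 1. Gsk3b, the kinase that marks beta-catenin for destruction, had 1429.6, 1204 and 1044 CPM in the mechanoreceptor libraries and 402, 658 and 440.5 CPM in the midline libraries. No midline library reached the lowest mechanoreceptor library (log2 fold change 1.29, SE 0.27, adjusted p = 0.00808). Tle4, a Groucho co-repressor of TCF/LEF factors, had 307, 326 and 311 CPM in mechanoreceptors, against 76.7, 166 and 107 CPM in the midline. Its groups were apart as well (log2 fold change 1.43, SE 0.29, adjusted p = 0.00683). Fbxw11, a subunit of the ligase for beta-catenin, was higher in mechanoreceptors (log2 fold change 0.82, adjusted p = 0.0261) and lost its call in 5 alternatives, with adjusted p up to 0.151. Tnks2, a tankyrase that destabilises Axin, was higher in the midline (log2 fold change -0.81, adjusted p = 0.0138) and was not called without mechanoreceptor library 8 (adjusted p = 0.0737) or 9 (0.064). Ctnnb1, the gene of beta-catenin (log2 fold change -0.32, adjusted p = 0.23, and 0.0114 on the deposited log2 values), and Apc (log2 fold change -0.15, adjusted p = 0.763) were not called. Under upper-quartile scaling, where the median of all genes was -0.26 instead of -0.05, 6 instead of 13 of the 62 other pathway genes were higher in mechanoreceptors.

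In the planar polarity arm 2 of 15 genes tested were higher in mechanoreceptors, beside 18.8% of all genes, 5 higher in the midline, beside 18.9%, and 8 not called. There were 0 and 2 called without mechanoreceptor library 2 and 0 and 4 without midline library 5. Celsr3 and Celsr1, which encode atypical cadherins, differed in direction. Celsr3 had 239, 187 and 162 CPM in mechanoreceptor libraries 2, 8 and 9, against 29.9, 104 and 35.5 CPM in midline libraries 2, 3 and 5. Midline library 3 was the nearest to the mechanoreceptors (log2 fold change 1.80, SE 0.46, adjusted p = 0.0182), and without it the log2 fold change was 2.59, while the call was lost without mechanoreceptor library 2 (adjusted p = 0.0636) or midline library 5 (0.0536). Celsr1 had 5.63, 13.02 and 1.40 CPM in the mechanoreceptor libraries and 69.3, 70.002 and 335 CPM in the midline libraries. Midline library 5 was the highest (log2 fold change -4.56, SE 0.92, adjusted p = 0.00706, with -3.35 without it and -5.46 without mechanoreceptor library 8). Celsr2 overlapped between groups and was not called (log2 fold change -1.04, adjusted p = 0.0563), and was called in 6 alternatives, with adjusted p of 0.00318 without midline library 2. Vangl2 (log2 fold change -1.53, adjusted p = 0.0105) and Invs (log2 fold change -0.90, adjusted p = 0.0213) were higher in the midline, with the call of Vangl2 at the threshold (0.05) without mechanoreceptor library 2 and that of Invs lost in 3 alternatives, with adjusted p up to 0.0794. Daam1 was not called (log2 fold change 0.39, adjusted p = 0.218).

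Other genes reported as Wnt targets did not all follow Axin2 and Nkd1. Of 6 tested, 1 was higher in mechanoreceptors, beside 18.8% of all genes, 3 were higher in the midline, beside 18.9%, and 2 were not called. Ccnd1, the gene of cyclin D1, had 28.04, 21.9 and 22.9 CPM in mechanoreceptors, against 122, 86.4 and 94.8 CPM in the midline. Both groups were even and far apart (log2 fold change -2.06, SE 0.22, adjusted p = 0.000733). Tnfrsf19 was higher in the midline (log2 fold change -4.17, adjusted p = 0.00135, and -5.10 without mechanoreceptor library 2), as was Nkd2 (log2 fold change -1.61, adjusted p = 0.0256), whose call was lost in 5 alternatives, with adjusted p up to 0.122. Myc had 103, 130.2 and 146 CPM in mechanoreceptor libraries 2, 8 and 9, against 76.5, 51.6 and 29.7 CPM in midline libraries 2, 3 and 5. It was higher in mechanoreceptors without overlap (log2 fold change 1.26, SE 0.34, adjusted p = 0.0207), and was not called without mechanoreceptor library 8 (adjusted p = 0.0613) or 9 (0.0685). Cd44 (log2 fold change 0.38, adjusted p = 0.497) was called only without midline library 2 (adjusted p = 0.0357, log2 fold change 0.98), and Bambi was not called (log2 fold change -1.02, adjusted p = 0.1).

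The midline libraries did not rank alike for all genes. Of the 29 Wnt genes higher in the midline, library 5 was the highest in 15, or 51.7%, library 2 in 10, or 34.5%, and library 3 in 4, or 13.8%. Over all 2902 genes higher in the midline the shares were 31.9%, 45.0% and 23.1%. Library 5 led for Wnt1, Wnt3, Wnt3a, Wnt4, Wnt5a, Wnt9a, Fzd1, Fzd3, Fzd10, Rspo1, Rspo3, Dkk3, Tcf7, Axin2 and Nkd1. The sums of roof plate and radial glia markers were also highest there, at 999 and 6810.0 CPM, against 267 and 2494 CPM in library 2. Library 3 had 862 and 5048 CPM of these markers, nearer to library 5. Its Wnt1 level of 42.4 CPM was nearer to the 23.6 CPM of library 2 than to the 147 CPM of library 5. Most of the roof plate sum was Zic1 (112, 443 and 392 CPM in libraries 2, 3 and 5) and Zic4 (109, 342 and 363 CPM). The other roof plate markers were split. Lmx1a (19.7, 15.3 and 75.2 CPM), Msx1 (21.7, 37.8 and 148 CPM) and Gdf7 (2.24, 0.444 and 7.71 CPM) were highest in library 5, and Lmx1b and Msx2 in library 3. Library 2 led for Wnt5b, Fzd4, Fzd6, Ror1, Ryk, Dkk2, Sfrp2, Wif1, Tcf7l1 and Tcf7l2, and it held the highest sums of muscle markers (12442 CPM, against 150.2 and 1234 CPM in libraries 3 and 5) and of meninges and connective tissue markers (7244.5 CPM, against 646 and 1228.5 CPM). The part of these markers in the levels of the Wnt genes was not tested.

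**Figure D5:**
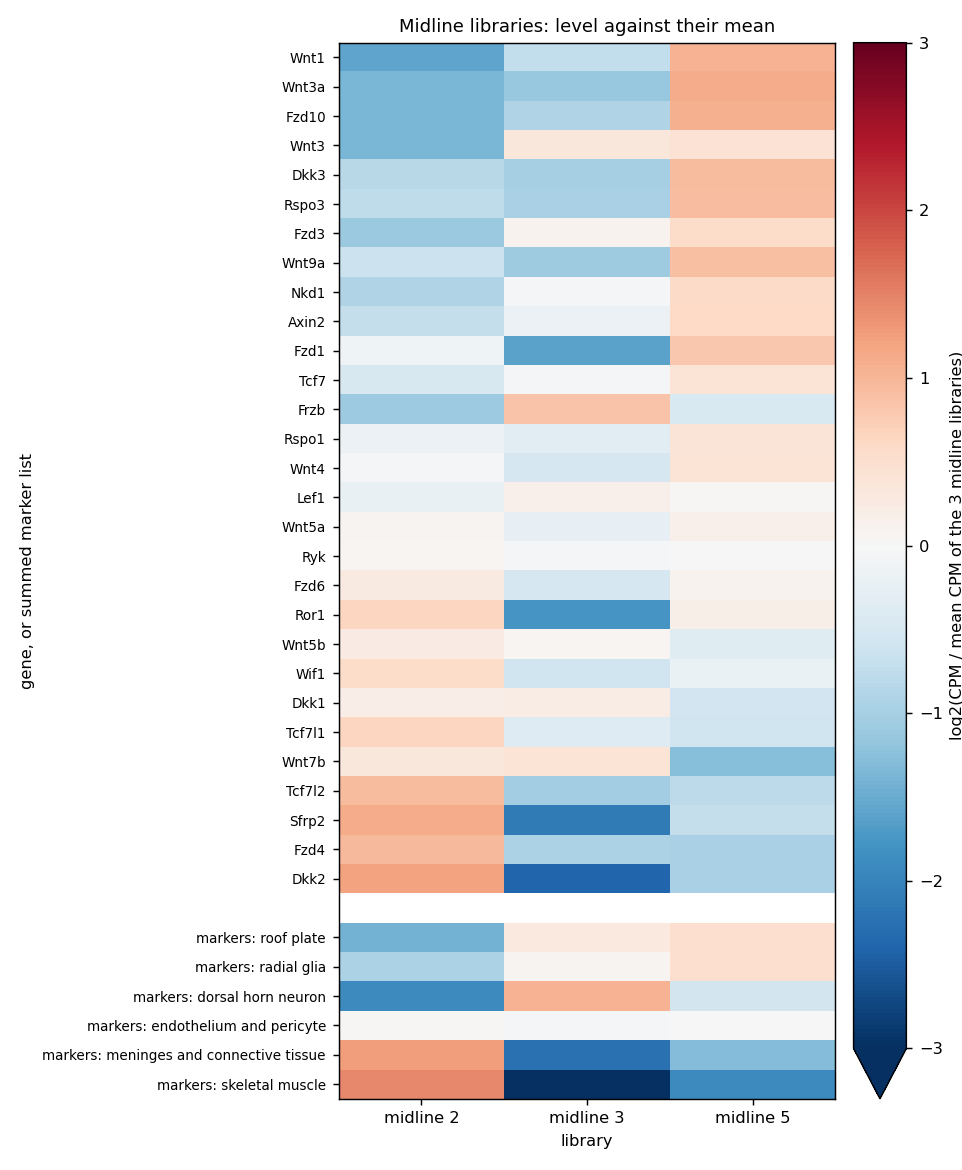
Level of the 29 Wnt genes higher in the midline, and the summed level of 6 marker lists, in each midline library as log2 of its CPM over the mean of the 3 midline libraries. Red is above and blue below that mean, rows are sorted by library 5 over library 2, and the scale ends at -3, which muscle markers in library 3 pass. Wnt1, Wnt3a and Fzd10 are red in library 5 alone, the roof plate and radial glia lists are red in libraries 3 and 5, and Dkk2, Fzd4 and Sfrp2 are red in library 2 with the meninges and muscle lists.

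The authors' deposited table marks 4 of the 55 genes as higher in mechanoreceptors (Rspo2, Rspo4, Sfrp4 and Sfrp5), where it marks 13.4% of all 22869 genes, and 32 as higher in the midline, where it marks 12.8%. Of the 31 genes called here, 29 were marked in the same direction in the authors' deposited table and 2, Ryk and Tcf7l1, were not marked. The 7 genes marked in that table of the authors and not called here were Wnt2, Wnt7a, Wnt8b, Wnt9b, Lrp5, Rspo4 and Sfrp5.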

How the data were processed

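RNA of 3 mechanoreceptor and 3 midline libraries was sequenced on an Illumina HiSeq, per the labels. The authors deposited unnormalized counts of reads in whole numbers for each RefSeq transcript, log2 expression values, and their own log2 fold change (midline over mechanoreceptor) and false discovery rate p-value per row, per the file headers. The build mm9 and edgeR are named in the submitters' processing notes. The aligner and the counter are not given in the sources used here, and neither is the strand.

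Of 28644 transcript rows, the row with the highest summed count was kept for each of 22869 symbols (7 of the 55 genes had more than 1 row, and none shared its 6 counts with another symbol). In R 4.3.3, edgeR 4.0.16 kept 15314 genes by filterByExpr (minimum count 10, total 15), scaled libraries by TMM (factors 0.881 to 0.907 in mechanoreceptors, 1.109 to 1.135 in the midline) and ran the quasi-likelihood F test with 4 residual degrees of freedom. Adjusted p follows Benjamini and Hochberg with all tested genes as the family, and comes from edgeR where no other tool is given. SE is the absolute log2 fold change over the square root of F. CPM is TMM-scaled, and a level per kb divides it by the length of the transcript in GENCODE M21. Before grouping, replicates were compared: their counts differed by far more than sampling noise (chi-square per degree of freedom 13.7 to 22.5 in mechanoreceptors, 34.2 to 74.5 in the midline). Intervals and floors of 3 counts cover counting error only.

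Alternatives were upper-quartile and RLE scaling, DESeq2 1.42.0, limma-voom 3.58.1, no count filter, a stricter one (1 CPM in 3 libraries and a total of 100), summed transcript rows, limma on the deposited log2 values, and each library left out in turn. Among the 55 genes, values in every library are given for those called that averaged 5 CPM or more in the higher group. They are also given for those tested and not called with a mean of at least 20 CPM over the 6 libraries. Of each list of other pathway genes, up to 4 called and 2 not called are named by mean CPM. The 55 genes, the lists and the marker genes were chosen with earlier results of these data known. The promoter search was added to describe the 55 genes and has no test.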

Additional observations from a re-analysis of the deposited data

How the results depend on the processing

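Over the 14 alternatives, 21 of the 31 called Wnt genes kept their direction and call in every alternative that tested them, 10 lost the call in at least 1, and 9 of the 14 not called passed in at least 1. No called gene changed sign. Among genes not called, Wnt6, Ror2 and Ptk7 changed sign between alternatives. With all libraries in, the count of called Wnt genes ran from 27 to 37, and that of Wnt genes higher in the midline from 24 to 34. When libraries were left out in turn, the called Wnt genes numbered 25 to 37, those higher in mechanoreceptors 1 to 4, beside 2 with all libraries, and those higher in the midline 23 to 35, beside 29. Of other pathway genes, 17 to 33 were called with a library left out, 4 to 15 of them higher in mechanoreceptors and 13 to 22 higher in the midline, beside 34, 13 and 21 with all libraries. Those higher in mechanoreceptors numbered 6 under upper-quartile scaling, which moves the median of all genes, and 8 on the deposited log2 values. The cause of the other changes was not tested. Fits with a library left out have fewer samples. Without any filter on counts 22217 genes were tested and the median of all genes was -0.30. No paired analysis was possible, as the groups came from embryos of different genotype and the labels name no pairs. Depth limits the 10 genes not tested, where 3 counts in a library were worth 0.345 to 0.667 CPM.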
